A study of Homo sapiens with 10 samples.

Results

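The mRNA levels of 10 genes of the cellular oxygen-sensing pathway were followed in melanoma cell lines before and after they acquired resistance to BRAF and MEK inhibition. The genes were EPAS1 and HIF1A, their partner ARNT, the regulators EGLN1 and EGLN3, and the target genes VEGFA, CA9, ADM, NDRG1 and BNIP3. They were taken by symbol from the 57955 Ensembl genes counted in every library. They were selected on the ratio of resistant to sensitive levels, EPAS1 being strongly higher in 4 of the resistant lines, so these values of the 10 genes are described here without a test. Of the 10 genes, 9 passed the filter on low counts that left 17288 genes, and CA9 did not.

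mRNA was sequenced in 10 libraries from 5 BRAF-mutant human melanoma lines grown in culture. WM983A, WM278 and WM902B came from primary tumours, and WM983B and WM1617 from metastases. The 5 sensitive lines were the original cells, and the 5 resistant lines (E+B_RES) were derived from them under encorafenib, a BRAF inhibitor, together with binimetinib, a MEK inhibitor. Selection began at 1 nM of the combination and ended at 200 nM, which took 3 to 5 months, and the resistant cells then stayed in 200 nM. Each line and state gave 1 library, so the lines served as replicates. WM983A and WM983B came from the same patient, as did WM278 and WM1617, so the 5 lines stand for 3 patients. Drug in the medium and acquired resistance cannot be told apart in this design, because the resistant cells were maintained in the inhibitors. The labels give no oxygen level, and none of the groups is described as hypoxic.

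The hypoxia-inducible factors (HIFs) are transcription factors made of an alpha subunit and the shared partner ARNT. In well-oxygenated cells prolyl hydroxylases of the EGLN family mark the alpha subunits, VHL binds the marked protein and the alpha subunit is degraded. When oxygen is low, the alpha subunits persist, enter the nucleus with ARNT and switch on genes for blood vessel growth, glycolysis, pH control and mitochondrial turnover. HIF1A encodes HIF-1alpha, which is present in nearly all cells. EPAS1 encodes HIF-2alpha, whose expression is more restricted and which is well known from endothelium and from kidney tumours. Most oxygen control of the alpha subunits acts on the proteins, which mRNA sequencing does not measure.

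HIF dimers bind short elements that contain ACGTG or GCGTG. The RefSeq promoter table (GRCh38.p14) held windows of 300 bases, 250 before to 50 after the transcript start, for 8 of the 10 genes, and VEGFA and NDRG1 had no entry. Both strands were searched. On the opposite strand the first motif reads CACGT. The second motif reads CACGC there. At least 1 match was found in a window of 6 of the 8 genes, and 48.4% of all 35116 windows held 1. ACGTG alone occurred in 3 of the 8 genes and in 21.4% of all windows, and GCGTG alone in 4 of the 8 genes and in 36.5%. These matches describe the letters and do not show binding.

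The 5 stretches of upstream sequence shown here belong to the genes at least 2-fold higher in 3 or 4 resistant lines (EPAS1, EGLN3, ADM), to CA9, a textbook HIF target that was barely detected, and to BNIP3, which held the most matches. Each has 150 bases read 5′ to 3′ on the strand of its gene and lies outside annotated exons, those of EPAS1 and EGLN3 inside a longer annotated form of the gene. The capitals mark the matches.
EPAS1 (chr2:46297257-46297406, + strand): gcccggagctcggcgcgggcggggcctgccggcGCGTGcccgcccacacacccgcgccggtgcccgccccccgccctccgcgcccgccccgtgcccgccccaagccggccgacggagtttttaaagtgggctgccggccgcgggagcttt
EGLN3 (chr14:33951082-33951231, - strand): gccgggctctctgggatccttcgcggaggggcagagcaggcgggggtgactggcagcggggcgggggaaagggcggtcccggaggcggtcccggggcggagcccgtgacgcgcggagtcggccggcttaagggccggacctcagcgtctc
ADM (chr11:10304923-10305072, + strand): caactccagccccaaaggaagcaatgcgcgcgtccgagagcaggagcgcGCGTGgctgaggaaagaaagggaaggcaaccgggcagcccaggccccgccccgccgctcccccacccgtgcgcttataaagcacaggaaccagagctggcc
CA9 (chr9:35673778-35673927, + strand): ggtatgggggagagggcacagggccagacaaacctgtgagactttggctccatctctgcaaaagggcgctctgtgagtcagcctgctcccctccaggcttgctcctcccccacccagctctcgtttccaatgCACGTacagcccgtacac
BNIP3 (chr10:131981968-131982117, - strand): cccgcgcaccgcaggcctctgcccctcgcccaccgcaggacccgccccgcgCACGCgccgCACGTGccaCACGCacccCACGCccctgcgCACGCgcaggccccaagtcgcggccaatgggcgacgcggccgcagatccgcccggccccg
EPAS1 held GCGTG with its first letter at -117 from the transcript start, and ADM held GCGTG at -101. CA9 held ACGTG on the opposite strand at -18. BNIP3 held 6 matches, of which 4 were GCGTG on the opposite strand and the other 2 were the ACGTG of a palindrome read on each strand, so those overlap. Neither motif occurred in the windows of EGLN3 and ARNT. EGLN1 held ACGTG at -13, and the first of the HIF1A windows held GCGTG at -204.

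The libraries held 13693922 to 18033247 expected counts each, and 3 counts, taken as the smallest detectable level, corresponded to 0.166 to 0.219 CPM (counts scaled by TMM to a common depth). The resistant WM983A library stood apart. Across genes, its correlation with its own sensitive line was r = 0.827, below its r = 0.845 with sensitive WM902B, whereas the other 4 resistant libraries were closest to their own line (r = 0.891 to 0.984). Values with and without line WM983A are therefore given for the means over lines. The within-line folds of WM983A carry this limit too. Melanocyte identity was read from 7 markers (MITF, PMEL, MLANA, TYR, DCT, SOX10 and S100B), all above 3 counts in all 10 libraries. Some were low, such as TYR at 0.339, SOX10 at 0.665 and S100B at 0.742 CPM in resistant WM902B. Passing 3 counts therefore does not show that the identity was kept. Their summed level was 429 to 4499 CPM in the sensitive lines and 89.7 to 4428 CPM in the resistant lines. Sensitive WM278 expressed little of the pigment genes, with TYR at 0.565 CPM and PMEL at 4.42 CPM. In bulk libraries such as these, a smaller share of expressing cells and less mRNA per cell cannot be told apart.

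EPAS1 (ENSG00000116016) is located at chr2:46293667-46386697 on the + strand (GRCh38). In the sensitive lines its level was 20.4 CPM in WM278, 14.3 CPM in WM902B, 4.9 CPM in WM983B, 9.9 CPM in WM983A and 26.9 CPM in WM1617. In the resistant lines it was 650 CPM in WM278, 261 CPM in WM902B, 247 CPM in WM983B, 56.2 CPM in WM983A and 21.1 CPM in WM1617. EPAS1 was thus higher in the resistant library of 4 lines and lower in that of WM1617, which kept the groups from separating. The resistant level was 50.3-fold the sensitive one in WM983B (95% exact interval of the counts, 40 to 64.2), 31.8-fold in WM278 (28.5 to 35.6), 18.3-fold in WM902B (15.9 to 21.1) and 5.68-fold in WM983A (4.77 to 6.84). In WM1617 it was 1.27-fold lower (1.1 to 1.47). These intervals cover counting error only. The mean was 15.3 ± 8.65 CPM in the sensitive and 247 ± 250 CPM in the resistant lines (SD, n = 5), and the within-line log2 ratio averaged 3.39 ± 2.40 (SD, n = 5), or 3.61 without WM983A. Over all genes tested, 1.72% had a level 2-fold or more above the sensitive one in 4 or 5 lines and 1.04% one that far below, and 0.44% had all resistant libraries above all sensitive ones and 0.318% all below. None of the 9 genes separated the groups in this way. The choice of EPAS1 rested on this same comparison, so nothing is read from these shares.

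The order of EPAS1 levels changed with resistance. WM1617 had the highest level among the sensitive lines and the lowest among the resistant lines. WM983B, with the lowest sensitive level, had the largest ratio. Resistant WM902B and WM983B were neighbours in the order at 261 and 247 CPM, and no line had a replicate with which such a difference could be tested. Within lines, the ratio of EPAS1 exceeded that of 99.7% of all genes tested in WM983B, 99.8% in WM278, 98.9% in WM902B, 95.7% in WM983A and 19.6% in WM1617. In the sensitive lines the highest EPAS1 level was 5.48 times the lowest, and in the resistant lines 30.8 times.

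**Figure D1:**
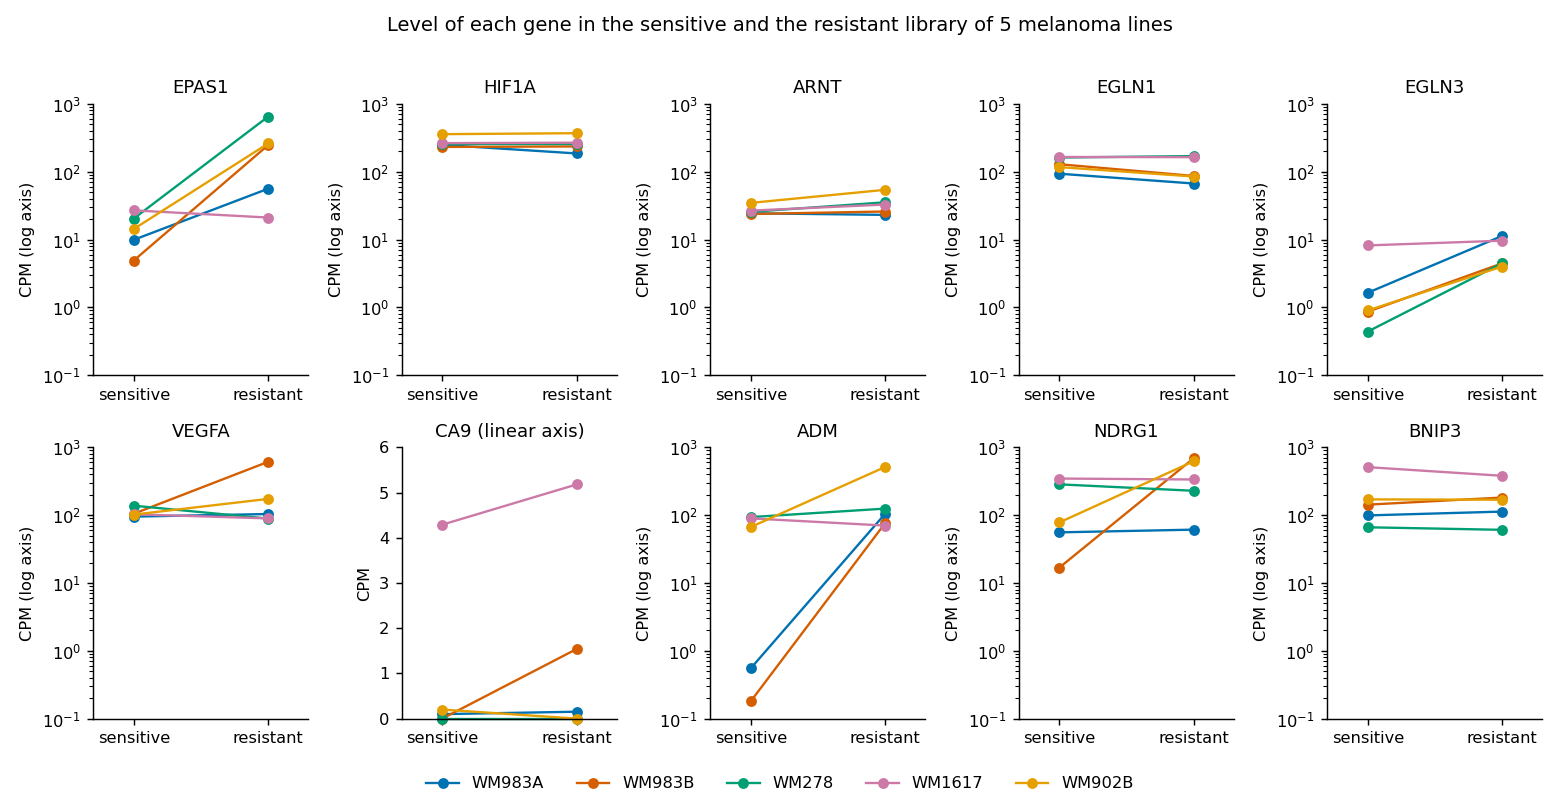
Level of each of the 10 genes in CPM (vertical axis, logarithmic except for CA9) in the sensitive and the resistant library of each line, with 1 point per library and a line joining the libraries of the same cell line. EPAS1 lies between 4.9 and 26.9 CPM in the sensitive libraries and between 21.1 and 650 CPM in the resistant ones, while HIF1A stays between 186 and 370 CPM throughout.

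HIF1A (ENSG00000100644, chr14:61695513-61748259, + strand), the other alpha subunit, differed little between the states. It was 256 CPM in sensitive WM278, 358 CPM in WM902B, 232 CPM in WM983B, 249 CPM in WM983A and 264 CPM in WM1617, and in the resistant libraries 256, 370, 236, 186 and 268 CPM in the same order of lines. The 5 lines thus kept nearly the same level of HIF1A in both states, apart from WM983A. Its log2 ratio was -0.42 in WM983A and between 0.00 and 0.05 in the other 4 lines, with a mean of -0.07 ± 0.20 (SD, n = 5), or 0.02 without WM983A. HIF1A overlaps antisense genes, of which HIF1A-AS1 had at most 94.8 counts, and whether the counting used strand is not given in the sources used here.

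The alpha subunits were compared with each other per kilobase of exon, using the merged exons of all isoforms, because EPAS1 has 7291 exon bases and HIF1A 5151. In the sensitive lines EPAS1 was at 0.672 to 3.69 CPM per kb and HIF1A at 45 to 69.5 CPM per kb. On this per-kilobase scale EPAS1 made up 5.34% of the summed level of both genes in sensitive WM278, 2.74% in WM902B, 1.47% in WM983B, 2.73% in WM983A and 6.71% in WM1617. In the resistant lines the share was 64.2% in WM278, 33.3% in WM902B, 42.5% in WM983B, 17.6% in WM983A and 5.27% in WM1617. HIF1A thus had the higher mRNA level in all sensitive lines and in 4 resistant lines, and EPAS1 had the higher level in resistant WM278, at 89.2 against 49.7 CPM per kb. Since HIF1A changed little, the shift in this balance came with the level of EPAS1.

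**Figure D2:**
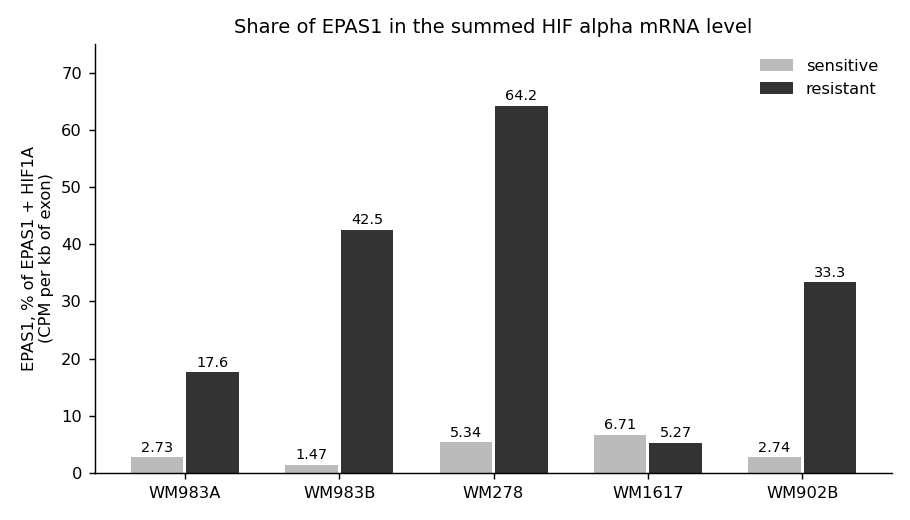
Share of EPAS1 in the summed level of EPAS1 and HIF1A (vertical axis, percent, from CPM per kilobase of exon) in each line, with grey bars for the sensitive and black bars for the resistant library. The share is 1.47% to 6.71% in the sensitive libraries and reaches 64.2% in resistant WM278, while WM1617 stays at 5.27%.

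ARNT (ENSG00000143437, chr1:150809713-150876708, - strand) encodes the beta subunit that both alpha subunits need. It was 25.6 CPM in sensitive WM278, 34.7 CPM in WM902B, 23.8 CPM in WM983B, 24.4 CPM in WM983A and 26.7 CPM in WM1617. The resistant levels in the same order were 35.4, 54.1, 25.9, 23.1 and 32.8 CPM. Among the sensitive lines the highest ARNT level was 1.46 times the lowest, and only VEGFA, at 1.45 times, varied less among the 9 genes. Its log2 ratio was at most 0.64, in WM902B, and averaged 0.29 ± 0.28 (SD, n = 5), or 0.38 without WM983A. Per kilobase, ARNT mRNA at 3.58 to 8.39 CPM per kb was below HIF1A in all 10 libraries. In the resistant WM278 library EPAS1 was at 89.2 CPM per kb and ARNT at 5.49 CPM per kb.

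EGLN1 and EGLN3 encode prolyl hydroxylases of the alpha subunits, EGLN1 (PHD2) being the main one in most cells and EGLN3 (PHD3) a gene that HIF itself induces. EGLN3 (ENSG00000129521, chr14:33924227-34462774, - strand) was 0.439 CPM in sensitive WM278, 0.899 CPM in WM902B, 0.861 CPM in WM983B, 1.64 CPM in WM983A and 8.19 CPM in WM1617. In the resistant libraries it was 4.47 CPM in WM278, 4 CPM in WM902B, 4.46 CPM in WM983B, 11.3 CPM in WM983A and 9.62 CPM in WM1617. EGLN3 was at least 2-fold higher in the same 4 lines as EPAS1, and in WM1617 its level was already high in the sensitive cells. The fold was 10.2 in WM278 (95% exact interval 4.68 to 26.2), 4.45 in WM902B (2.49 to 9.14), 5.17 in WM983B (2.84 to 10.2), 6.86 in WM983A (4.47 to 11) and 1.17 in WM1617 (0.919 to 1.5). The counts behind these values were low, from 7 to 168 per library, and the mean log2 ratio was 2.10 ± 1.13 (SD, n = 5), or 1.94 without WM983A. EGLN3 and EPAS1 were the only 2 of the 10 genes at least 2-fold higher in 4 lines.

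EGLN1 (ENSG00000135766, chr1:231363751-231422287, - strand) was lower in the resistant library of 4 lines, by small amounts. It was 162 CPM in sensitive WM278, 117 CPM in WM902B, 129 CPM in WM983B, 93.5 CPM in WM983A and 165 CPM in WM1617, and 170, 85, 86.7, 67 and 164 CPM in the resistant libraries in that order. The resistant level was 1.4-fold lower in WM983A, 1.49-fold lower in WM983B and 1.38-fold lower in WM902B, and within 1.05-fold of the sensitive level in WM278 and WM1617. The mean log2 ratio was -0.29 ± 0.30 (SD, n = 5), or -0.24 without WM983A. Per kilobase EGLN1 stayed far above EGLN3, at 12.5 to 31.5 CPM per kb against at most 1.53 CPM per kb. Another annotated gene shares 3004 exon bases with EGLN1 on the same strand, so some of these reads may belong to it.

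The target genes did not move together. ADM encodes adrenomedullin, a vessel-dilating peptide hormone, and lies at chr11:10305073-10307397 on the + strand (ENSG00000148926). Its sensitive level was 93.7 CPM in WM278, 66.9 CPM in WM902B, 0.18 CPM in WM983B, 0.551 CPM in WM983A and 89.7 CPM in WM1617. Its resistant level was 125 CPM in WM278, 514 CPM in WM902B, 76.4 CPM in WM983B, 105 CPM in WM983A and 70.3 CPM in WM1617. The sensitive lines thus fell far apart, WM983A and WM983B, which share a patient, being almost without ADM, whereas all 5 resistant lines expressed it. ADM was 191-fold higher in resistant WM983A (95% exact interval 101 to 465) and 7.68-fold higher in WM902B (7.19 to 8.21). In WM983B the ratio was 423 (131 to 1866), but it rests on 2.72 expected counts in the sensitive library. In WM278 ADM was 1.33-fold higher and in WM1617 1.28-fold lower. The mean log2 ratio was 3.74 ± 3.95 (SD, n = 5), or 2.82 without WM983A.

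NDRG1 (ENSG00000104419, chr8:133237175-133302022, - strand) encodes a stress-response protein that hypoxia and differentiation induce in many cell types. It was 285 CPM in sensitive WM278, 78 CPM in WM902B, 16.8 CPM in WM983B, 55.8 CPM in WM983A and 347 CPM in WM1617. In the resistant libraries it was 229 CPM in WM278, 624 CPM in WM902B, 690 CPM in WM983B, 61.2 CPM in WM983A and 336 CPM in WM1617. The increase was thus limited to WM983B, at 41.2-fold (95% exact interval 36.3 to 46.8), and WM902B, at 8-fold (7.52 to 8.51). In the other 3 lines the levels of the states were within 1.24-fold of each other, and EPAS1 was higher in 2 of them. A link between EPAS1 and NDRG1 was not tested. The mean log2 ratio was 1.63 ± 2.48 (SD, n = 5), or 2.00 without WM983A and 0.69 without WM983B. Another annotated gene shares 753 exon bases with NDRG1 on the same strand.

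VEGFA (ENSG00000112715, chr6:43770184-43786487, + strand) encodes the main growth factor of blood vessels. It was 138 CPM in sensitive WM278, 102 CPM in WM902B, 105 CPM in WM983B, 95.3 CPM in WM983A and 103 CPM in WM1617. The resistant levels were 89.1 CPM in WM278, 174 CPM in WM902B, 613 CPM in WM983B, 104 CPM in WM983A and 89.7 CPM in WM1617. Resistant WM983B stood alone, with a level 5.83-fold that of its sensitive line (95% exact interval 5.53 to 6.15). VEGFA was 1.7-fold higher in WM902B and 1.55-fold lower in WM278. Resistant WM278 had the highest level of EPAS1, and a link between the genes was not tested. The mean log2 ratio was 0.52 ± 1.24 (SD, n = 5), or 0.62 without WM983A and 0.01 without WM983B.

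CA9 (ENSG00000107159, chr9:35673928-35681159, + strand) encodes a carbonic anhydrase of the cell surface that is among the most used tissue markers of HIF-1 activity. It was at or under 3 counts in 7 of the 10 libraries. The sensitive libraries held 0 counts in WM278, 3 in WM902B, 0 in WM983B, 1.5 in WM983A and 60 in WM1617, and the resistant libraries 0 counts in WM278, 0 in WM902B, 24.6 in WM983B, 1.99 in WM983A and 90.5 in WM1617. CA9 was thus detected in both states of WM1617, at 4.29 and 5.18 CPM, and in resistant WM983B, at least 7.77-fold higher than 3 counts in its sensitive library. In WM1617 the resistant level was 1.21-fold the sensitive one (95% exact interval 0.858 to 1.7). CA9 shares 571 exon bases with ARHGEF39 on the opposite strand, which had 210 to 473 counts, so a low CA9 count may include reads of that gene.

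BNIP3 (ENSG00000176171, chr10:131967684-131981967, - strand) encodes a receptor that directs mitochondria to autophagy. It was 66.3 CPM in sensitive WM278, 171 CPM in WM902B, 143 CPM in WM983B, 99.2 CPM in WM983A and 511 CPM in WM1617. The resistant levels were 60.8, 169, 182, 113 and 381 CPM in the same order. BNIP3 differed more between lines than between states, and WM1617 had the highest level in both states. Its log2 ratio lay between -0.43 in WM1617 and 0.34 in WM983B, with a mean of -0.01 ± 0.30 (SD, n = 5), or -0.06 without WM983A. BNIP3 has many pseudogene copies, of which BNIP3P1 held 58 to 550 counts, so its level is uncertain where reads fit both.

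**Figure D3:**
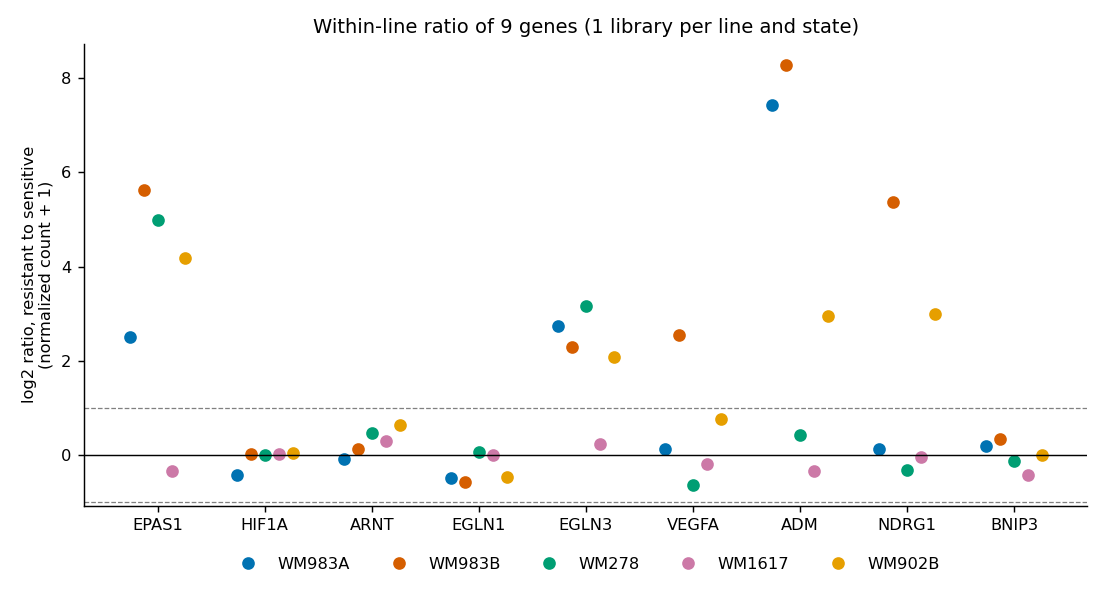
Within-line difference in log2(normalized count + 1), resistant minus sensitive (vertical axis), for 9 of the genes, with 1 point per line and dashed lines at a 2-fold change. CA9 is left out because it was at or under 3 counts in 7 libraries. EPAS1 and EGLN3 lie above 2-fold in 4 lines, ADM in 3, NDRG1 in 2 and VEGFA in 1, while all WM1617 points lie between the dashed lines.

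By line, WM983B was the broadest. Of the 9 genes past the filter, 5 were at least 2-fold higher in resistant WM983B (EPAS1, EGLN3, VEGFA, ADM and NDRG1), 4 in WM902B (the same without VEGFA), 3 in WM983A (EPAS1, EGLN3 and ADM), 2 in WM278 (EPAS1 and EGLN3) and 0 in WM1617. None of the 9 was at least 2-fold lower in any line. Over all genes tested, the share at least 2-fold higher was 16.2% in WM983B, 15.4% in WM902B, 16.9% in WM983A, 12% in WM278 and 2.83% in WM1617. The share at least 2-fold lower was 11.2% in WM983B, 12% in WM902B, 19.4% in WM983A, 7.02% in WM278 and 3.79% in WM1617. The 9 genes were chosen on these ratios, so nothing is read from their counts against these shares. WM278 had the highest resistant level of EPAS1, and besides EPAS1 only EGLN3 was at least 2-fold above its sensitive level there. Resistant WM983B had a lower level of EPAS1, with VEGFA, ADM and NDRG1 also at least 2-fold above their sensitive levels. The level of ADM itself was lower in resistant WM983B (76.4 CPM) than in resistant WM278 (125 CPM).

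Across the 10 libraries, EPAS1 followed ADM (Pearson r = 0.686, Spearman rho = 0.867) and NDRG1 (r = 0.657, rho = 0.648) in log2 CPM, and had little correlation with HIF1A (r = 0.0939, rho = 0.212). HIF1A followed ARNT (r = 0.824, rho = 0.891). These values describe 10 libraries that share lines in pairs and are given without a test. Of all genes past the filter, the 5 most like EPAS1 were TTLL3 (r = 0.992), which encodes an enzyme that adds glycine to tubulin, DENND6B (r = 0.955), COA5 (r = 0.954), PGRMC2 (r = 0.95) and AGBL2 (r = 0.947). TTLL3 ranged from 2.51 to 23 CPM, and its log2 ratio was 2.15 in WM278, 2.42 in WM902B, 2.69 in WM983B, 1.21 in WM983A and -0.44 in WM1617. The 5 genes most like HIF1A were RP11-1008C21.2 (r = 0.976), GPR19 (r = 0.945), RP11-264B17.3 (r = 0.924), TBCE (r = 0.919) and AC096949.1 (r = 0.916). These likenesses were the highest among 17288 genes over 10 libraries and say nothing of shared control.

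Markers of other cell types were read beside EPAS1, since endothelium and fibroblasts express it strongly. The 6 endothelial markers (PECAM1, VWF, CDH5, TEK, TIE1 and CLDN5) summed to 0.935 to 6.23 CPM in the sensitive and 0.674 to 12.3 CPM in the resistant libraries, and CDH5, which defines endothelium, was at most 0.197 CPM and 0 in all 5 resistant libraries. The 12.3 CPM of resistant WM278 was almost wholly TIE1, at 12.2 CPM. The 6 fibroblast markers summed to 13.1 to 79 CPM in the sensitive and 7.7 to 1372 CPM in the resistant libraries, where COL1A1 gave 1235 CPM in WM902B, 89 CPM in WM983B and 76.1 CPM in WM278. PDGFRA reached 104 CPM in resistant WM902B, a log2 ratio of 5.59 to the sensitive line. Of the 4 fibroblast markers tested, 3 were at least 2-fold higher and 1 lower in WM278, and 3 higher and 0 lower in WM902B. In WM983B 2 were higher and 1 lower, in WM983A 1 higher and 2 lower, and in WM1617 1 higher and 1 lower. The higher ones in WM278 were COL1A1, DCN (0.188 to 1.08 CPM) and LUM (0 to 1.66 CPM), so 2 rose from near the smallest detectable level. PDGFRA was lower there (log2 ratio -1.35). In WM983A COL1A1 was higher, and DCN and LUM were lower (log2 ratios -5.43 and -6.87). Of all genes tested, 12% were at least 2-fold higher and 7.02% lower in WM278, and 15.4% and 12% in WM902B. These shares were 16.2% and 11.2% in WM983B, 16.9% and 19.4% in WM983A, and 2.83% and 3.79% in WM1617. COL1A1, the main chain of type I collagen, was the gene called among the 4 fibroblast markers tested, with a log2 fold change of 6.11 (SE 1.76, edgeR unadjusted p = 0.00557, adjusted p = 0.63), while COL1A2, its partner chain, was at most 0.816 CPM. The leukocyte list of 5 genes summed to 4.62 to 78.4 CPM, nearly all CD68, with PTPRC at most 0.356 CPM, and the keratinocyte list of 5 genes to at most 20.2 CPM, with KRT1 at 0 in every library. The 20.2 CPM was in resistant WM983B, where TP63 gave 19.3 CPM against 1.13 CPM in the sensitive line. Of the 7 melanocyte markers, 7 were at least 2-fold lower in resistant WM983A, 6 in WM983B and 6 in WM902B, but 0 in WM278 and 0 in WM1617. At least 2-fold higher were 2 of these markers in WM278, 1 in WM983B and 1 in WM1617. EPAS1 was therefore higher in 3 lines whose melanocyte markers were mostly lower and in WM278, whose melanocyte markers were not. Most of them were already low in sensitive WM278, with MITF at 10.7, PMEL at 4.42, MLANA at 0.756, TYR at 0.565 and DCT at 0.941 CPM. SOX10 and S100B were 319 and 92.8 CPM there. The part of the markers in the level of EPAS1 was not tested.

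The wider pathway was read from 3 lists that held none of the 10 genes, namely HIF subunits and regulators, glycolytic HIF targets, and other HIF and hypoxia targets. The 5 resistant were tested against the 5 sensitive libraries by the quasi-likelihood F test of edgeR, and a gene was called at 2-fold or more with an unadjusted p up to 0.05. Over all genes tested, 763 (4.41%) were called, 610 higher (3.53%) and 153 lower (0.885%), and with the cell line as a block 957 (5.54%), 603 higher and 354 lower. After Benjamini-Hochberg adjustment edgeR called 0 genes (smallest adjusted p 0.63), with 1235 genes at an unadjusted p up to 0.05, whereas DESeq2 called 104. Of the 81 listed pathway genes 75 were tested, and 2 were called higher and 0 lower. With the block 1 was higher and 1 lower. These counts, and the calls in the single lists below, are too small to be read against the shares of all genes. The median log2 fold change of the 75 genes was 0.08, against 0.03 over all genes.

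Among the HIF subunits and regulators, 1 of 14 genes tested was called. CITED2, which competes with HIF for its coactivators and is itself a HIF target, was 34.4 CPM in sensitive WM278, 17.7 CPM in WM902B, 19.5 CPM in WM983B, 25.1 CPM in WM983A and 21.8 CPM in WM1617, and 93.5, 150, 86.6, 20.2 and 24 CPM in the resistant libraries in that order. It was clearly higher in WM983B, WM278 and WM902B. Its log2 fold change was 1.66 (SE 0.52, edgeR unadjusted p = 0.00938, adjusted p = 0.63), higher in 4 of 5 lines. Without line WM902B it was 1.17 (edgeR unadjusted p = 0.0618), which ends the call. EGLN2, the third hydroxylase of this family, had a log2 fold change of 0.09 (SE 0.19), VHL of 0.33 (SE 0.23) and HIF1AN, the asparagine hydroxylase of the alpha subunits, of -0.03 (SE 0.25). None of these 3 was called. HIF3A, the remaining alpha subunit, was at most 0.0714 CPM in any library and was not tested. These 4 genes were named for their roles after their values were seen.

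Of the 21 glycolytic HIF targets, 0 were called in either direction at the unadjusted p in edgeR without the block, against 4.41% of all genes. Those with the largest differences were lower, PFKFB4 by a log2 fold change of -1.68 (SE 0.83, edgeR unadjusted p = 0.0686, adjusted p = 0.72) and PFKFB3 by -0.56 (SE 0.37, unadjusted p = 0.162, adjusted p = 0.794). Both encode enzymes that set fructose 2,6-bisphosphate, an activator of glycolysis. PFKFB4 was lower in the resistant library of all 5 lines, with log2 ratios of -1.16 in WM278, -3.36 in WM902B, -1.75 in WM983B, -4.68 in WM983A and -0.38 in WM1617. With the block its log2 fold change was -2.21 (edgeR unadjusted p = 0.0142, adjusted p = 0.461), and it was then called. Line by line, the 21 genes included 5 at least 2-fold lower (23.8%, against 7.02% of all genes) and 1 higher (4.76%, against 12%) in WM278. In WM983A 6 were lower (28.6%, against 19.4%) and 3 higher (14.3%, against 16.9%). In WM983B the counts ran the other way, with 1 lower (4.76%, against 11.2%) and 4 higher (19%, against 16.2%). In WM902B 2 were lower (9.52%, against 12%) and 0 higher (against 15.4%). In WM1617 0 were lower (against 3.79%) or higher (against 2.83%). The median ratio of the list was -0.59 in WM278, -0.21 in WM902B, 0.14 in WM983B, 0.17 in WM983A and -0.10 in WM1617.

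Of the 40 other HIF and hypoxia targets tested, 1 was called higher and 0 lower, and with the block 0 were called in either direction. Line by line, 18 of the 40 genes were at least 2-fold higher in resistant WM983B (45%, against 16.2% of all genes) and 2 were lower (5%, against 11.2%). In WM983A 9 were higher (22.5%, against 16.9% of all genes) and 13 lower (32.5%, against 19.4%). In WM278 5 were higher (12.5%, against 12%) and 4 lower (10%, against 7.02%). In WM902B 7 were higher (17.5%, against 15.4%) and 6 lower (15%, against 12%). In WM1617 3 were higher (7.5%, against 2.83%) and 1 lower (2.5%, against 3.79%). These line counts compare single libraries and have no test.

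**Figure D4:**
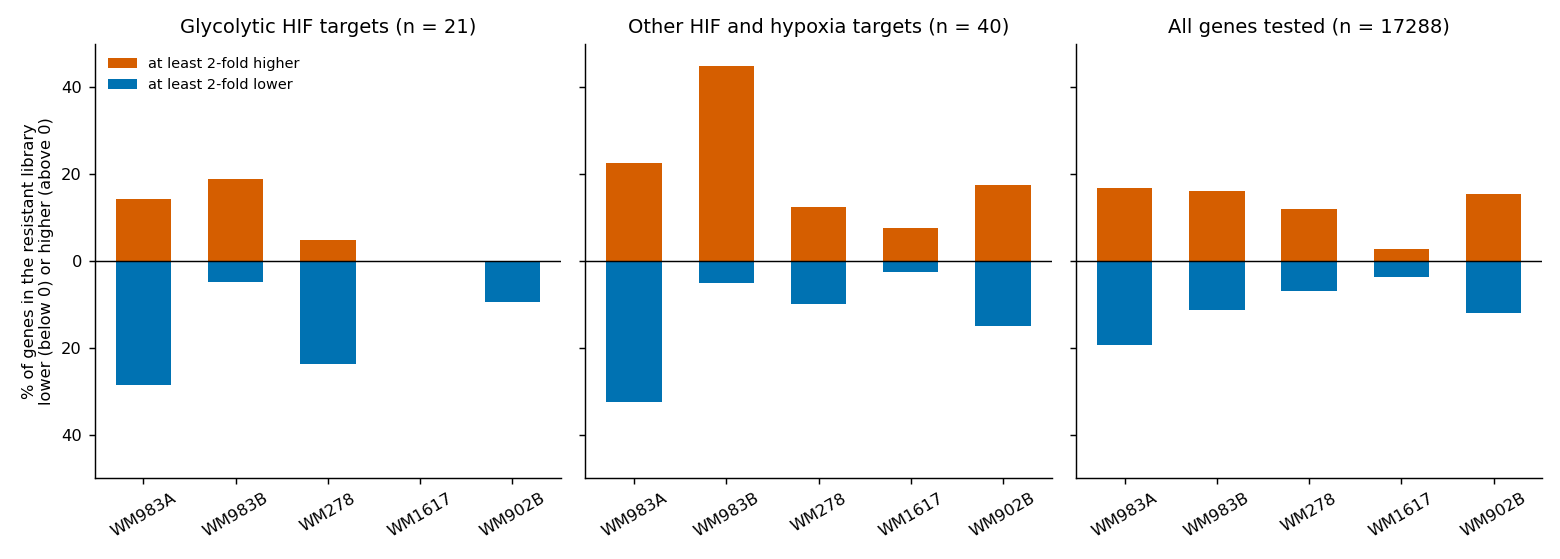
Percent of genes at least 2-fold higher (orange, above 0) or at least 2-fold lower (blue, below 0) in the resistant library of each line, for 21 glycolytic HIF targets, 40 other HIF and hypoxia targets and all 17288 genes tested. The other HIF and hypoxia targets reach 45% higher in WM983B against 16.2% of all genes, and the glycolytic targets reach 28.6% lower in WM983A against 19.4% of all genes.

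Relatives and receptors of the 10 genes gave 0 calls in edgeR at an unadjusted p up to 0.05, where 4.41% of all genes tested were called. Lists this short are not read against that share. Of 9 genes of the VEGF family and its receptors, 6 were tested. VEGFC, a lymphatic growth factor, had a log2 fold change of 2.38 (SE 1.27, edgeR unadjusted p = 0.088, adjusted p = 0.734), and FLT1, a VEGFA receptor, of -1.78 (SE 1.47, unadjusted p = 0.253, adjusted p = 0.837). VEGFC was 142 CPM in resistant WM983B against 4.63 CPM in the sensitive line, and 32 against 3.21 CPM in WM902B. The p of VEGFC fell under 0.05 in DESeq2 (0.0299 unadjusted). Of 6 genes of the adrenomedullin family and its receptors only ADM2 was tested, at a log2 difference of 0.28 (SE 1.51, adjusted p = 0.983). CALCRL, the receptor of adrenomedullin, named for its role after its values were seen, was at most 1.2 CPM in any library.

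Of the 6 paralogues of NDRG1 and CA9, 3 were tested and 0 called, with NDRG3 at a log2 fold change of 0.45 (SE 0.26, edgeR unadjusted p = 0.116, adjusted p = 0.764) and NDRG2 at 0.30 (SE 0.69, unadjusted p = 0.675, adjusted p = 0.956). Of 7 further mitophagy receptors and regulators, 6 were tested and 0 called. PINK1, a kinase that marks damaged mitochondria, was at 0.31 (SE 0.30, edgeR unadjusted p = 0.319, adjusted p = 0.863), and FKBP8, another mitophagy receptor, at 0.29 (SE 0.19, unadjusted p = 0.159, adjusted p = 0.793). BNIP3L, the closest relative of BNIP3 and also named for its role, ranged from 47.6 to 296 CPM with a log2 fold change of 0.02 (SE 0.49).

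Origin was not used to choose the genes, but the sensitive levels were, as the denominator of the ratios. The sensitive levels were compared between the 2 lines of metastatic and the 3 of primary origin. The p-values of the chosen genes in this comparison are therefore not independent of their choice. Of 18047 genes tested, 254 (1.41%) were called at 2-fold with an unadjusted p up to 0.05, and edgeR called 0 after adjustment (smallest adjusted p 1), with 314 at an unadjusted p up to 0.05, whereas DESeq2 called 25. None of the 9 genes tested passed in edgeR, and all had an adjusted p of 1. EPAS1 was 15.9 ± 15.5 CPM in the metastatic (SD, n = 2) and 14.9 ± 5.3 CPM in the primary lines (SD, n = 3), a log2 difference of 0.10 (SE 0.78). BNIP3 was 327 ± 260 against 112 ± 53.3 CPM, a log2 difference of 1.55 (SE 0.66, edgeR unadjusted p = 0.0618). EGLN3 was 4.53 ± 5.19 against 0.994 ± 0.608 CPM, a log2 difference of 2.20 (SE 1.06, edgeR unadjusted p = 0.0885). In both genes the metastatic mean rested on WM1617, and the other metastatic line, WM983B, lay within the range of the primary lines. Without WM1617 the difference of BNIP3 was 0.34 and that of EGLN3 -0.20, while without WM983B that of EGLN3 was 3.05. Either omission left 1 metastatic library, so no p-value is given for it. The difference of EPAS1 also rested on single lines, being -1.61 without WM1617 and 0.85 without WM983B. The log2 difference was -0.26 for ADM and 0.38 for NDRG1, but -8.04 and -3.07 without WM1617 and 0.73 and 1.31 without WM983B. Those of HIF1A, ARNT, EGLN1 and VEGFA lay between -0.22 and 0.24, and leaving out any 1 line kept them between -0.32 and 0.48. These lines include pairs from the same patients.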

How the data were processed

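mRNA was selected with oligo-dT and sequenced as single-end reads of 75 cycles, 1 library per line and state. Alignment by the authors was to GRCh38 with HISAT2, and gene levels came from StrandNGS. Versions, annotation and strand setting are not given in the sources used here. The authors deposited expected counts, in which a read may count in fractions (24.1% of the values above 0 were whole), and a log2 value per gene. The deposited log2 values were normalized by the authors with the DESeq algorithm and are relative to each line's own sensitive library. Their only use here was to recover 455 expected counts of sensitive WM983B that had been turned into dates, all of which fitted the digits still visible within 0.01 counts.

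The expected counts were rounded and analysed with edgeR 4.0.16 (filterByExpr, TMM, glmQLFit and glmQLFTest, two-sided) in R 4.3.3, with DESeq2 1.42.0 as an alternative, and in Python 3.11.15 (numpy 2.4.6, pandas 2.3.3, scipy 1.17.1, matplotlib 3.10.9). The fits without the block were also run on simulated counts. These had no paired lines or shared patients, unlike the real libraries, so nothing is read from them here. Within-line log2 ratios used normalized counts with 1 added. Fold intervals are 95% exact binomial intervals of the counts, and a fold is a bound where the lower library had 3 counts or fewer, except that ADM in WM983B is given as a ratio with its interval. Positions and exon lengths are from GENCODE release 44, which held 56911 of the 57955 gene IDs. Totals were 13693922 to 18033247 counts. p-values measure the spread between lines, some of which share a patient.

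The 10 genes, the lists and the tests were chosen with earlier results of these data known. The named genes are the 10 members, the called genes of each list (at most 6) or, with none called, its 2 largest differences, and the 5 genes most correlated with EPAS1 and with HIF1A. A result under this rule is not reported here. Resistant and sensitive libraries were paired by cell line, since each resistant line was derived from the sensitive line of its name. As a check, the deviations of libraries of the same line from their group means correlated at 0.67 in WM278, 0.35 in WM902B, 0.51 in WM983B, -0.08 in WM983A and 0.66 in WM1617. Libraries of different lines averaged -0.10. The check thus did not bear out the pairing of WM983A, which rests on the line name. The comparison was fitted without the block, and the block was an alternative. The other alternatives were DESeq2, its size factors, no filter on low counts, no date-affected genes, library totals, a pseudocount of 5, and leaving out each line.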

Additional observations from a re-analysis of the deposited data

Results flagged for a closer look

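In each group of 5 libraries, a library far from the other 4 was sought for each of the 10 genes, over 20 groups in all. Chance flags about 1 group in 20. Sensitive WM278 had 138 CPM of VEGFA, above 95.3 to 105 CPM in the other sensitive libraries. Sensitive WM1617 had 4.29 CPM of CA9, above 0 to 0.2 CPM in the others, which were all at or under 3 counts. Resistant WM902B had 514 CPM of ADM, above 70.3 to 125 CPM in the others, with a ratio of 0.712 that barely passed.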

How the results depend on the processing

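The number of genes called (763) was 755 with DESeq2's size factors, 899 with DESeq2, 957 with the replicate block and 750 without date-affected genes, but 2258 with no filter on low counts. Leaving out 1 line gave 419 (without WM902B) to 1493 (without WM1617), with 422 without WM983B, and 748 without the resistant WM983A library alone. At an adjusted p, 0 genes became 104 with DESeq2. The 2 pathway genes called stayed 2 in number with the replicate block, with 1 adjusted call by DESeq2, 4 with no filter, 1 to 5 without 1 line (1 without WM983B or WM902B, 4 without WM278, 5 without WM1617), and 3 without the resistant WM983A library. The origin calls (254) became 517 with DESeq2 (25 adjusted), 613 with no filter, and 173 to 976 when 1 line was left out, with 386 without sensitive WM983A and 976 without WM983B. For BNIP3, origin passed the unadjusted p in DESeq2 (0.0363), and in edgeR with no filter (0.036) and without WM902B (0.0448). Its sensitive levels entered the choice of the genes, so these p-values are not independent of that choice. Without WM983B the metastatic group was WM1617 alone, and the log2 difference was 2.19 for BNIP3 and 3.05 for EGLN3. PFKFB4 was also under it in DESeq2 (0.0349) and without WM1617 (0.0115), and VEGFC without WM278 (0.0278) or WM1617 (0.0465). Among the pathway genes named in the text, the block changed the call of PFKFB4 and no other. The call of COL1A1 held with the block (0.0126), and TYR was then called lower (0.0292). No call of a named pathway gene changed direction in the alternatives run for it. The mean ratio of HIF1A went from -0.07 to 0.02 without WM983A.

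Library totals moved the within-line ratios of the 10 genes by at most 0.12 and size factors by at most 0.03 on the log2 scale. A pseudocount of 5 moved them by up to 2.10, in CA9 of WM983B. Depth limits CA9, EGLN3 and sensitive ADM most. With 1 library per line and state, only the spread between lines stands behind each comparison.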

Other observations

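Some HIF-related genes outside the 10 had large differences in some lines. They were chosen after their values were seen. CA12, a membrane carbonic anhydrase related to CA9, was 0.11 CPM in sensitive and 306 CPM in resistant WM983A, and at most 5.39 CPM in the other 8 libraries. It was too low overall to pass the count filter. EDN1, which encodes the vessel-constricting peptide endothelin 1, was listed at 0 in sensitive and 126 CPM in resistant WM983A, and was 0.2 and 8.14 CPM in WM902B and 28.1 and 22 CPM in WM278. STC2, a secreted glycoprotein, was 5.78 and 76.2 CPM in WM983A, 1.92 and 119 CPM in WM983B, 0.468 and 34.9 CPM in WM902B, 255 and 361 CPM in WM278, and 40.4 and 25.1 CPM in WM1617. EDN1 and STC2 were among the 40 other HIF and hypoxia targets tested, and edgeR called neither (EDN1 unadjusted p = 0.262, adjusted p = 0.843, and STC2 unadjusted p = 0.476, adjusted p = 0.915).

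Some receptor genes of the lists were uneven across lines. RAMP1, which pairs with CALCRL, was 151 CPM in sensitive and 211 CPM in resistant WM278 and at most 0.718 CPM in the other 8 libraries. The related RAMP2 was at most 3.05 CPM and RAMP3 was 0 in every library, so the high level of RAMP1 does not speak for an adrenomedullin receptor. KDR, the main receptor of VEGFA, was 53.3 CPM in sensitive and 5.16 CPM in resistant WM278 and at most 0.592 CPM in the others. FLT1 was highest in the same line, at 126 CPM in sensitive and 23.4 CPM in resistant WM278.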
